A study of Homo sapiens with 48 samples.

Results

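The genes described here are 54 genes of DNA replication and nucleotide supply, taken by symbol from 19775 genes that had a probe set annotated to a single symbol on Affymetrix HG-U133 Plus 2.0 arrays. Each gene was represented by its brightest probe set over all 48 arrays, and all 54 were measured. The arrays came from T47D-YA, a variant of the T47D breast cancer line that lacks insulin receptor substrate (IRS) proteins, in sublines made to carry human IRS-1, which are #10 and #20, or human IRS-2, which are #1 and #6. Each subline is a single clone, and the IRS-null cells were not analysed here. After 24 h in serum-free medium (SFM), cells were given insulin-like growth factor I (IGF-I), or SFM with fibronectin and no IGF-I, and RNA was taken at 24 h or 4 h. These 16 groups of clone, time and treatment held 3 arrays each, lettered A, B and C. The labels do not say that the 3 arrays came from separate cultures, so the p-values measure only the spread between these arrays, which may be technical.

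DNA is copied once per cell cycle. The origin recognition complex marks start sites, CDC6 and CDT1 load the MCM helicase there in G1, and the kinase CDC7 with DBF4, together with CDC45 and the GINS complex, turns the loaded helicase on. Polymerases, their sliding clamp PCNA and its loader then copy both strands, while ribonucleotide reductase (RRM1 and RRM2), thymidylate synthase (TYMS) and thymidine kinase (TK1) supply deoxynucleotides. Many of these genes are transcribed under E2F factors as cells pass from G1 to S phase, and IGF-I is a growth factor that can drive breast cancer cells through that step. In bulk RNA, a larger share of cells in S phase and more transcript per cell cannot be told apart.

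Values are log2 and were deposited after normalization between arrays, so a difference of 1 is a doubling. Array medians lay between 7.39 and 7.50, and arrays of a group correlated at 0.993 to 0.998 over probe sets with a mean log2 of at least 5. The luminal breast markers KRT8, KRT18, KRT19, EPCAM, CDH1, GATA3 and ESR1 averaged 10.4 to 14.8, and 8 markers of fibroblasts, leukocytes and endothelium averaged 5.31 (CDH5) to 10.03 (COL1A1). No probe set for IRS1 or IRS2 had both clones of its own isoform above both clones of the other: IRS1 probe set 204686_at had medians of 5.60 and 6.09 in IRS-1 clones #10 and #20, against 8.46 and 7.91 in IRS-2 clones #1 and #6, and IRS2 probe set 209184_s_at had medians of 7.07 and 7.06 in the IRS-1 clones #10 and #20, against 7.04 and 7.09 in the IRS-2 clones #1 and #6. Where these probes lie relative to the introduced sequences is not given in the sources used here, so they do not check the clone names, which are those of the labels. As a measure of RNA quality, the log2 ratio of 3′ to 5′ ACTB probe sets differed between IGF-I and SFM arrays at 24 h by -0.03 in #10, -0.03 in #20, -0.05 in #1 and -0.01 in #6, with separate groups in #1 and overlapping ones in the others. Its part in the differences below was not tested. A gene was called at an adjusted p under 0.05 from limma, with the Benjamini-Hochberg adjustment over all 54613 probe sets, and the background is the percentage of all 19775 genes called the same way.

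After 24 h of IGF-I, some replication genes were called higher in each of the 4 clones. None was called lower, against 6.65%, 2.95%, 1.62% and 4.34% of all genes in #10, #20, #1 and #6. In IRS-1 #10, 42 of the 54 were called higher (background 4.39%). The count was 22 in #20 (background 7.46%), 26 in #1 (background 2.93%) and 8 in #6 (background 1.42%). The median difference over the 54 was 0.35 in #10, 0.15 in #20, 0.18 in #1 and 0.08 in #6, while the median over all genes was within 0.0117 of 0 in each clone. MCM10, POLA2, POLE2, DBF4, RRM1 and RRM2 were called in all 4 clones. Another 12 genes were called in 3 clones, 11 in 2 clones and 16 in 1 clone. On these brightest probe sets no clone gave a call for CDT1, ORC3, ORC4, GINS3, POLD2, POLD3, PRIM2, RPA1 or RPA3. A second probe set of 3 of them was called higher in IRS-1 #10: CDT1 by 0.47, GINS3 by 0.48 and RPA1 by 0.21. The 26 genes called in #1 and the 8 called in #6 were all among the 42 of #10 (61.9% and 19.0% of those 42). Of the 22 called in #20, 19 were (86.4% of the 22 and 45.2% of the 42). With 42 of the 54 members called in #10, a large overlap is likely for any list of members. Nothing is read from it. Differences were small: 6 genes were called and passed 1.5-fold, all of them in IRS-1 #10 (background 0.197%), namely MCM10, RRM2, CDC45, ORC1, POLA2 and CDC6. The methods' t-test with Benjamini-Hochberg adjustment called 16 members at 24 h in #10 and 0 in #20, #1 and #6, and with its own thresholds 6 in #10 and 0 in the others. With 1 letter left out in all groups, #10 had 37 to 40 calls, but the count fell to 9 without replicate A and 6 without replicate B in #20, and to 9 without replicate B and 8 without replicate C in #1. In IRS-2 #6 it was 4, 2 and 2 without replicates A, B and C, it was 18 after quantile normalization, and it was 2 after median centring.

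The median over the 54 genes on each array, after subtraction of each gene's mean over the 48 arrays, separated the treatments at 24 h in every clone. In IRS-1 #10 it was 0.09, 0.05 and 0.04 on the IGF-I arrays, against -0.37, -0.31 and -0.26 on the SFM arrays. In IRS-2 #6, where the group means were closest, it was 0.18, 0.22 and 0.23 with IGF-I, against 0.12, 0.14 and 0.11 in SFM. In IRS-1 #20 the nearest arrays almost met, at -0.0065 with IGF-I, against -0.014 in SFM. The IRS-1 #10 arrays in SFM at both times and with IGF-I at 4 h lay between -0.44 and -0.26, below every array of the other clones. At 24 h with IGF-I the arrays of IRS-1 #20 lay between -0.0065 and 0.08, a range that overlapped that of IRS-1 #10. The SD between arrays of a group, pooled over groups, was 0.047.

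**Figure D1:**
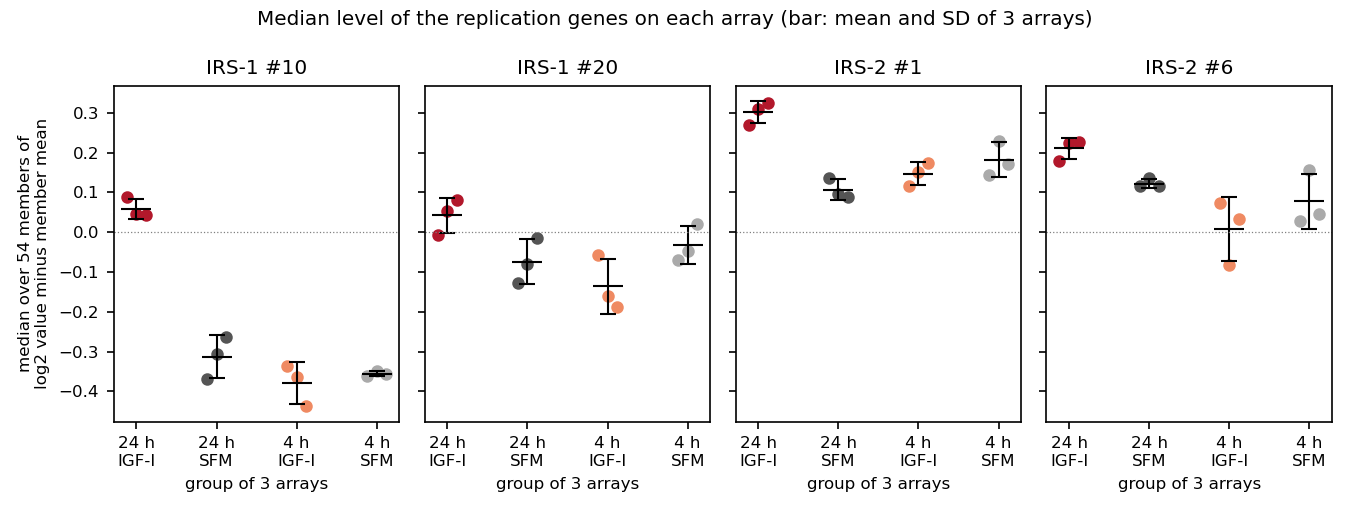
Median over the 54 replication genes of the log2 value minus each gene's mean over 48 arrays (y axis), for every array of each clone (panels) grouped by time and treatment (x axis). Points are arrays and black bars the mean and SD of 3. IGF-I arrays lie above SFM arrays at 24 h in all 4 panels, with the widest gap in IRS-1 #10 (0.04 to 0.09 with IGF-I, against -0.37 to -0.26 in SFM).

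At 24 h the 3 IGF-I arrays lay above the 3 SFM arrays for 46 of the 54 genes in #10 (13.4% of all genes), 26 in #20 (15.4%), 46 in #1 (13.6%) and 30 in #6 (9.76%). By value alone, 39 genes were higher with IGF-I in all 4 clones. The share of all genes with that pattern is not given here, so nothing is read from this count. The members' other probe sets, 46 in number, gave 27 higher calls in #10, 7 in #20, 10 in #1 and 2 in #6. None was called lower. The share over all probe sets is not given here. Of the other probe sets of members called higher, 24 of 35 were called in #10 and 7 of 21 in #20. In #1 it was 10 of 19, and in #6 it was 2 of 7. Positive values among them, called or not, numbered 33, 14, 16 and 7 in #10, #20, #1 and #6.

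**Figure D2:**
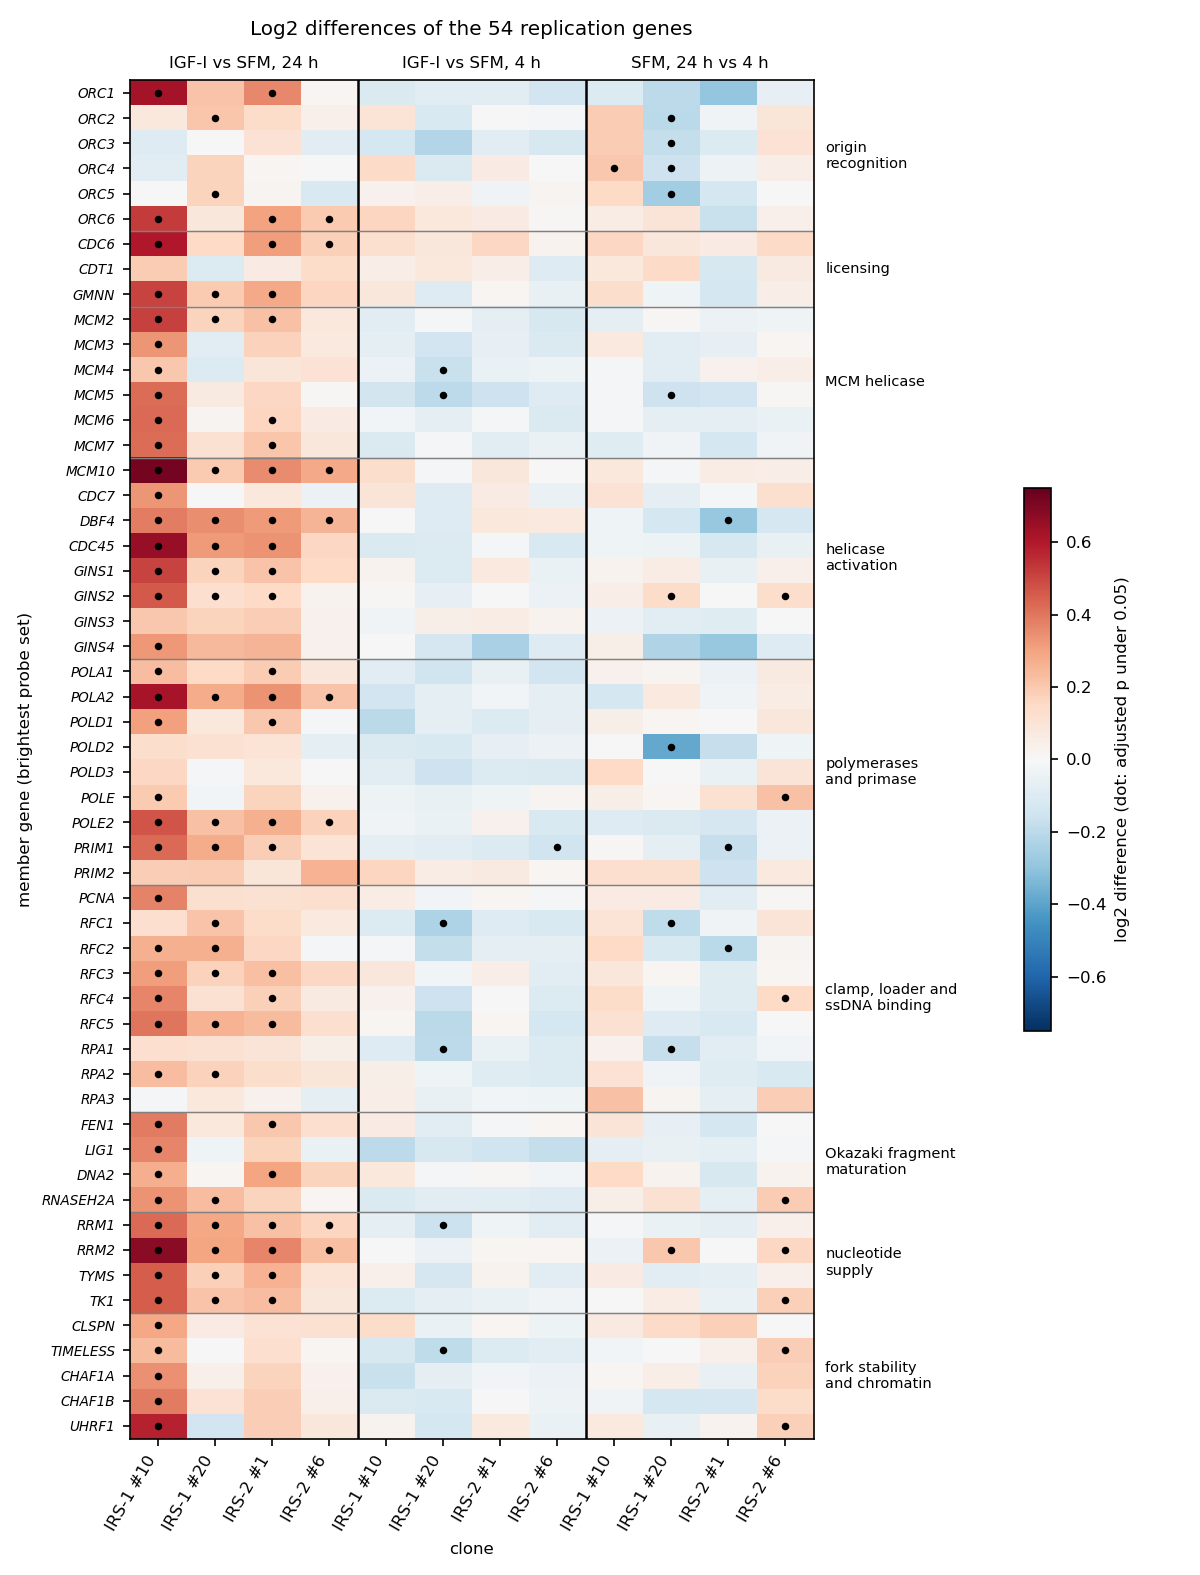
Log2 difference of each of the 54 genes (rows, grouped by role) in each clone (columns), for IGF-I over SFM at 24 h, IGF-I over SFM at 4 h and SFM at 24 h over 4 h. Colour gives the log2 difference and a black dot a call at adjusted p under 0.05; the 24 h IGF-I block holds 42, 22, 26 and 8 dots in #10, #20, #1 and #6.

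Promoters of the members were looked up in RefSeq windows (GRCh38.p14) of 250 bases before to 50 after the start, which were listed for 47 of the 54 genes and for 15384 of the measured genes. E2F letters, searched on both strands in the spelling TTGGCGC, in the spelling TTCCCGC, in the spelling TTCGCGC and in the spelling TTGCCGC, occurred in 68.1% of the members' windows (32 of 47) and in 17.0% of all windows. With TTGGCGG added, a spelling chosen after the windows had been seen, the shares were 74.5% and 20.5%. CCAAT, the letters of the NF-Y box, occurred in 57.4% of the members' windows and in 36.1% of all, and TTTGAA, the letters of the cell cycle homology region, in 4.26% and 11.9%. The median GC content was 65.7% in the members' windows and 63.0% in all. Of the 32 members with E2F letters in their window (first 4 spellings), 27 were called higher at 24 h in IRS-1 #10, with a median difference of 0.369 over the 32; of the 15 without, 10 were called, with a median of 0.386. Below are the 200 bases before the start of the 6 genes called and past 1.5-fold at 24 h, and last of MCM6, added after its matches had been seen because TTGGCGC is overlapped there by the reverse complement of TTCGCGC in 2 places. The printed stretches of MCM10, with the largest difference of all, and of RRM2 hold no E2F letters. Past its printed stretch, MCM10 has the added spelling at position 6 from the start, and RRM2 has no E2F match in its window. The printed stretches of CDC45 and CDC6 hold E2F letters only in the added spelling. CDC6 has TTGGCGC at position 8 from the start, past its printed stretch, and CDC45 has none of the first 4 spellings in its window. Capitals mark E2F letters (with the added spelling) and CCAAT on either strand, 5′ to 3′ on the gene's strand. A match is a run of letters and not a measured binding site.
MCM10, chr10:13161358-13161557, plus strand: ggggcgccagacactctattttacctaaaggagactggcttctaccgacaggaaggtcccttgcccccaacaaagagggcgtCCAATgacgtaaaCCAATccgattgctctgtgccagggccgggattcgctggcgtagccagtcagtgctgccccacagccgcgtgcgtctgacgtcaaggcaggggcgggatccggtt
ORC1, chr1:52404424-52404623, minus strand: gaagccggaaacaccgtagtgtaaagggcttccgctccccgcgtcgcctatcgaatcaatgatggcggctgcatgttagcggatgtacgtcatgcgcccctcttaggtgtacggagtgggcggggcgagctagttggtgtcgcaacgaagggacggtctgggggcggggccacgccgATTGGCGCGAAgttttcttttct
POLA2, chr11:65261762-65261961, plus strand: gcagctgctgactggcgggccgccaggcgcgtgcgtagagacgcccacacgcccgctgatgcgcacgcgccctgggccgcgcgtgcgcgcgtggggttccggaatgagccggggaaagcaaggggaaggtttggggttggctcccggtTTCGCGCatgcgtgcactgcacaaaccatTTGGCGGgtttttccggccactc
CDC6, chr17:40287679-40287878, plus strand: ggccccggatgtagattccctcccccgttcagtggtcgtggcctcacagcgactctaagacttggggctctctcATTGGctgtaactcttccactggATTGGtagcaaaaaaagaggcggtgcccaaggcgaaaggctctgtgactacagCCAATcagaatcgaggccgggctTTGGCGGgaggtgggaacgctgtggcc
CDC45, chr22:19479720-19479919, plus strand: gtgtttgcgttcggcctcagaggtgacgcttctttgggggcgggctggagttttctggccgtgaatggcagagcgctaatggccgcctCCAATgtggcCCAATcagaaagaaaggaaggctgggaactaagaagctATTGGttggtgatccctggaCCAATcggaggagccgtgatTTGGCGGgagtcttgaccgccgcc
RRM2, chr2:10122539-10122738, plus strand: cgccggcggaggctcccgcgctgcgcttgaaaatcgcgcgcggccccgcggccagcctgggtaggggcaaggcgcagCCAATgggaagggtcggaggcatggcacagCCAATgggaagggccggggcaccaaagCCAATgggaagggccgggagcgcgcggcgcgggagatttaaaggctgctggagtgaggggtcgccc
MCM6, chr2:135876444-135876643, minus strand: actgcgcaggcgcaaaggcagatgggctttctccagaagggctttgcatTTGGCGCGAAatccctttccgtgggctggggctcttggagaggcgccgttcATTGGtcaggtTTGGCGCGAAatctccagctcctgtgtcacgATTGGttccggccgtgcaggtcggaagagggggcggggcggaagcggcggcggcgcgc

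Origin recognition genes split by subunit at 24 h. ORC1, the large ATPase subunit, and ORC6 were called higher in #10 and #1, and ORC6 also in #6, whereas ORC2, ORC3, ORC4 and ORC5, the core subunits, had differences of -0.10 to 0.08 in #10. ORC1 (probe set 205085_at) read 8.48, 8.25 and 8.35 on the IGF-I arrays of IRS-1 #10, against 7.53, 7.96 and 7.74 on its SFM arrays. These groups did not overlap, and the difference was 0.62 ± 0.10 (SE, as in all values with ± below, n = 3 each, limma adjusted p = 2.05e-05). In IRS-2 #6, ORC1 read 8.65, 8.69 and 8.73 with IGF-I, against 8.70, 8.82 and 8.50 in SFM, and the groups overlapped (0.02 ± 0.10, adjusted p = 0.969). ORC1 differed by 0.36 in IRS-2 #1, a call lost without each of the replicates A, B and C in turn (0.42, 0.33 and 0.33) and after quantile normalization (0.32), and by 0.22 in IRS-1 #20, which was not called. ORC6 (219105_x_at) read 10.53, 10.60 and 10.64 with IGF-I in IRS-1 #10, against 10.05, 10.05 and 10.10 in SFM. All IGF-I arrays were higher, by 0.52 ± 0.06 (adjusted p = 2.06e-09). In IRS-1 #20, ORC6 read 9.71, 9.64 and 9.72 with IGF-I, against 9.57, 9.68 and 9.56 in SFM. These groups overlapped (0.09 ± 0.06, adjusted p = 0.52). The ORC6 calls in #1 (0.30) and #6 (0.20) were lost without replicates B and C in #1 (0.26 and 0.29) and without each letter in #6 (0.20, 0.21 and 0.19). Probe sets ending in _x_at, such as that of ORC6, can also hybridize to related sequences. ORC2 (0.21) and ORC5 (0.17) were called in IRS-1 #20 alone among the clones, with overlapping arrays.

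Among the licensing genes, CDC6, which loads the helicase, and GMNN (geminin), which blocks CDT1 once S phase has begun, were called higher, whereas the 2 probe sets of CDT1 differed in IRS-1 #10. CDC6 (203967_at) read 10.70, 10.66 and 10.59 on IGF-I arrays of IRS-1 #10, against 10.02, 10.02 and 10.11 on SFM arrays, without overlap (0.60 ± 0.05, adjusted p = 5.78e-12). In IRS-1 #20, CDC6 read 10.46, 10.55 and 10.51 with IGF-I, against 10.30, 10.31 and 10.47 in SFM. The groups overlapped there by 1 SFM array, and the difference of 0.15 ± 0.05 was not called (adjusted p = 0.0803). CDC6 was called in #1 (0.31) and #6 (0.18), and the call in #6 was lost without each letter (0.21, 0.19 and 0.13). GMNN (218350_s_at) read 11.65, 11.56 and 11.68 with IGF-I in IRS-1 #10, against 11.07, 11.10 and 11.20 in SFM, a rise of 0.51 ± 0.05 (adjusted p = 9.70e-11) with no overlap. In IRS-2 #6, GMNN read 11.85, 11.86 and 11.94 with IGF-I, against 11.72, 11.75 and 11.69 in SFM. The arrays were separate, yet the adjusted p was 0.0504 (0.16 ± 0.05). Quantile normalization gave a call (0.18). The fit on averaged probe sets gave one too, but GMNN has only 1 probe set. Its difference there was the same 0.16, so that call adds no further measurement of GMNN. GMNN was also called in #20 (0.20), though not without replicates A and B (0.18 and 0.21), and in #1 (0.28). CDT1, the partner of CDC6 in loading, differed on its brightest probe set by 0.19, -0.10, 0.06 and 0.14 in #10, #20, #1 and #6, with no call. Its other probe set, 209832_s_at, was called in IRS-1 #10 (0.47 ± 0.08, adjusted p = 3.68e-05) and had differences of 0.17, 0.26 and 0.10 in #20, #1 and #6, which were not called.

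All 6 subunits of the MCM2 to MCM7 helicase were called higher at 24 h in IRS-1 #10, by 0.20 (MCM4) to 0.51 (MCM2). In IRS-1 #20 MCM2 was the only one called (0.16), and the 6 ranged from -0.10 to 0.16. MCM2, MCM6 and MCM7 were called in IRS-2 #1, at 0.22, 0.16 and 0.21, and none in IRS-2 #6, where the 6 ranged from 0.01 to 0.11. MCM6, chosen after its values were seen because its promoter is printed above, read 12.28, 12.24 and 12.23 with IGF-I in IRS-1 #10, against 11.78, 11.87 and 11.82 in SFM. In IRS-1 #20 it read 12.16, 12.20 and 12.20 with IGF-I, against 12.09, 12.18 and 12.23 in SFM. The arrays were thus separate in IRS-1 #10 and overlapped in IRS-1 #20.

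Helicase activation held 4 of the leading genes. MCM10 (220651_s_at), which joins the activated helicase, had the largest difference of all members, with 11.13, 11.05 and 11.07 on IGF-I arrays of IRS-1 #10, against 10.36 on each SFM array (0.72 ± 0.05, adjusted p = 3.08e-15). In IRS-1 #20 it read 11.14, 11.22 and 11.21 with IGF-I, against 10.95, 10.94 and 11.09 in SFM (0.20 ± 0.05, adjusted p = 0.00567). The groups were separate in both clones, but the call in IRS-1 #20 was lost without replicate A (0.20) or B (0.16) and with the mean of the gene's probe sets (0.09). MCM10 rose by 0.35 in IRS-2 #1 and by 0.28 in IRS-2 #6. CDC45 (204126_s_at), a part of the working helicase, read 10.13, 10.07 and 10.05 with IGF-I in IRS-1 #10, against 9.39, 9.44 and 9.46 in SFM (0.65 ± 0.06, adjusted p = 7.43e-12). In IRS-2 #6 CDC45 read 10.23, 10.22 and 10.20 with IGF-I, against 10.06, 10.13 and 10.00 in SFM. These arrays were separate, and the difference of 0.16 ± 0.06 was not called (adjusted p = 0.133), except after quantile normalization (0.18). CDC45 was called in #20 (0.32) and, except without replicate B (0.27), in #1 (0.33). DBF4 (204244_s_at), the activator of the kinase CDC7, had differences of 0.39, 0.35, 0.32 and 0.25 in #10, #20, #1 and #6. It read 10.63, 10.66 and 10.77 with IGF-I in IRS-1 #10, against 10.23, 10.31 and 10.36 in SFM (adjusted p = 3.58e-05). In IRS-2 #6 DBF4 read 10.67, 10.86 and 10.91 with IGF-I, against 10.55, 10.59 and 10.54 in SFM (adjusted p = 0.0158). The arrays were separate in both, and the calls were lost without replicate C in IRS-2 #1 (0.27) and without replicates B and C in IRS-2 #6 (0.24 and 0.20). CDC7 itself was called in IRS-1 #10 alone among the clones (0.33) and differed by 0.08 or less in size in the others. GINS1 (206102_at), of the 4-subunit GINS complex, read 11.44, 11.45 and 11.47 with IGF-I in IRS-1 #10, against 10.88, 10.96 and 11.00 in SFM (0.51 ± 0.05, adjusted p = 1.41e-09). In IRS-2 #6 GINS1 read 11.66, 11.71 and 11.83 with IGF-I, against 11.60, 11.60 and 11.55 in SFM, separate but not called (0.15 ± 0.05, adjusted p = 0.129), except after quantile normalization (0.17). GINS1 was called in IRS-1 #20 (0.17), not without replicates A and B (0.14 and 0.16), and in IRS-2 #1 (0.22), not without each letter (0.22, 0.22 and 0.21). GINS2 was called in 3 clones and GINS4 in 1. GINS3 was not called on its brightest probe set, and its other one, 45633_at, was called in IRS-1 #10 (0.48 ± 0.10, adjusted p = 8.27e-04).

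Of the 9 polymerase and primase genes, POLA2 and POLE2 were called in all 4 clones. POLA2 (204441_s_at), the regulatory subunit of polymerase alpha, read 10.89, 10.87 and 10.85 with IGF-I in IRS-1 #10, against 10.20, 10.29 and 10.28 in SFM, a rise of 0.62 ± 0.05 (adjusted p = 3.79e-13). In IRS-2 #6 it read 11.00, 11.02 and 11.04 with IGF-I, against 10.81, 10.84 and 10.77 in SFM (0.21 ± 0.05, adjusted p = 0.00516). Neither pair of groups overlapped. With the mean of its 3 probe sets POLA2 was not called in #20 (0.07), #1 (0.11) or #6 (0.10), nor in #6 without each letter (0.22, 0.23 and 0.18); on its brightest probe set it rose by 0.28 in #20 and 0.34 in #1. POLE2 (205909_at), a small subunit of polymerase epsilon, read 10.53, 10.56 and 10.55 with IGF-I in IRS-1 #10, against 10.06, 10.05 and 10.12 in SFM (0.47 ± 0.05, adjusted p = 2.14e-09). In IRS-2 #6 POLE2 read 10.79, 10.85 and 10.92 with IGF-I, against 10.75, 10.67 and 10.62 in SFM (0.17 ± 0.05, adjusted p = 0.0444). The groups were separate, though the second gap was narrow, and the call was lost without replicate B in #20 (0.20), and without replicates B and C in #1 (0.26 and 0.24) and #6 (0.17 and 0.11). PRIM1, the catalytic primase subunit, was called in 3 clones and the catalytic subunit genes POLA1 and POLD1 in 2. POLE, the catalytic subunit of polymerase epsilon, was called in 1 and PRIM2, the other primase subunit, in none. POLD2 and POLD3, subunits of polymerase delta, were called in none.

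The clamp PCNA was called in IRS-1 #10 alone among the clones (0.37, adjusted p = 2.41e-08), with 0.11 to 0.13 in the others, although its IGF-I arrays lay above its SFM arrays in all 4. Clamp loader genes RFC3 and RFC5 were called in 3 clones, RFC2 and RFC4 in 2, and RFC1, the large subunit, in IRS-1 #20 (0.22). For single-strand binding, RPA2 was called in both IRS-1 clones (0.23 in #10 and 0.17 in #20), and RPA3 in none. RPA1 was not called on its brightest probe set, and another, 201529_s_at, was called in IRS-1 #10 (0.21 ± 0.06, adjusted p = 0.0192). All 4 genes of Okazaki fragment maturation, the nucleases FEN1, DNA2 and RNASEH2A and the ligase LIG1, were called in #10 (0.27 to 0.39), 1 in #20, 2 in #1 and none in #6.

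Nucleotide supply was the one role with all its genes called in 3 clones: RRM1, RRM2, TYMS and TK1 were higher in #10 (0.42 to 0.68), #20 (0.18 to 0.29) and #1 (0.22 to 0.36). RRM2 (209773_s_at), the small, S-phase subunit of ribonucleotide reductase, read 12.99, 12.95 and 12.99 with IGF-I in IRS-1 #10, against 12.23, 12.31 and 12.35 in SFM (0.68 ± 0.04, adjusted p = 1.94e-17). In IRS-2 #6 RRM2 read 13.06 on each IGF-I array, against 12.84, 12.82 and 12.83 in SFM (0.23 ± 0.04, adjusted p = 1.38e-04). The gap was wider than the range within either group in both clones, and RRM2 stayed called in all 4 clones without each letter. RRM1 (201477_s_at), the large subunit, read 11.81, 11.78 and 11.81 with IGF-I in IRS-1 #10, against 11.40, 11.36 and 11.36 in SFM (0.42 ± 0.05, adjusted p = 2.07e-09). In IRS-2 #6 it read 12.14, 12.12 and 12.18 with IGF-I, against 11.94, 12.05 and 11.96 in SFM (0.16 ± 0.05, adjusted p = 0.0299). The groups were separate, but the call was lost without each letter in IRS-2 #6 (0.14, 0.21 and 0.13) and without replicates B and C in IRS-2 #1 (0.20 and 0.19). TYMS and TK1 were not called in IRS-2 #6, at 0.10 and 0.08.

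**Figure D3:**
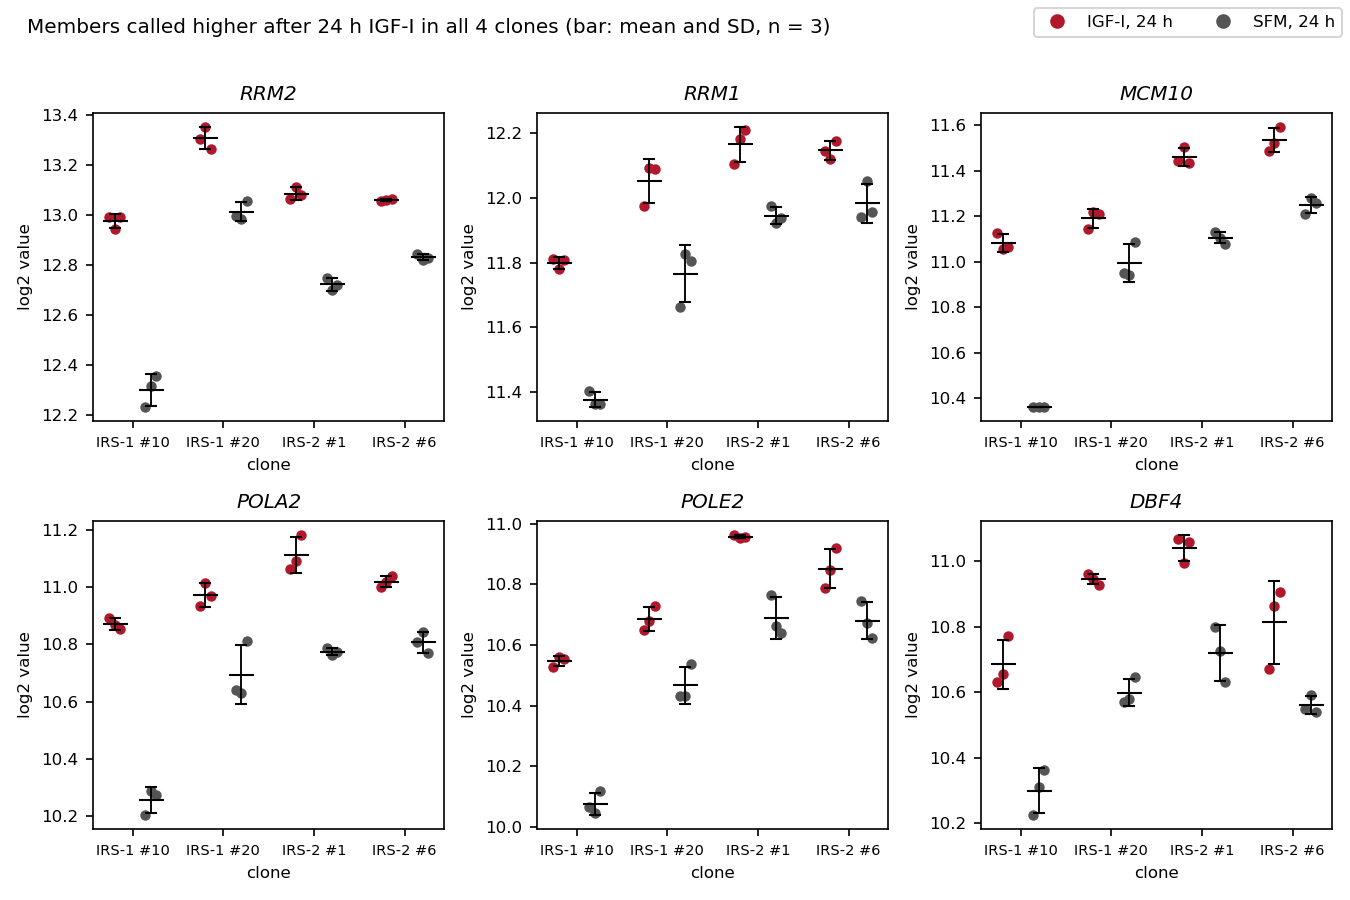
Log2 values at 24 h of the 6 genes called higher in all 4 clones (panels), for each clone (x axis), with IGF-I in red and SFM in grey. Points are arrays and bars the mean and SD of 3; no IGF-I array lies at or below an SFM array of its clone, and the IRS-1 #10 SFM arrays are the lowest group in every panel.

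The chromatin and fork genes were called in IRS-1 #10 and in no other clone: CHAF1A and CHAF1B of the chromatin assembly factor, the checkpoint mediator CLSPN, its partner TIMELESS, and UHRF1, which guides DNA methylation after replication, were higher by 0.24 to 0.57. UHRF1 (225655_at), singled out after its values were seen, read 11.32, 11.34 and 11.38 with IGF-I in IRS-1 #10, against 10.69, 10.83 and 10.80 in SFM (0.57 ± 0.06, adjusted p = 2.05e-10). In IRS-1 #20 it read 11.23, 11.47 and 11.41 with IGF-I, against 11.45, 11.51 and 11.58 in SFM. The groups were separate in IRS-1 #10, and in IRS-1 #20 they overlapped with the IGF-I mean lower (-0.14 ± 0.06, adjusted p = 0.143).

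At 4 h of IGF-I limma called 0 members higher in each clone, where 1.18%, 1.17%, 1.53% and 1.89% of all genes were called higher in #10, #20, #1 and #6. The medians over the 54 were -0.02, -0.09, -0.02 and -0.06 in #10, #20, #1 and #6, and members ranged from -0.24 to 0.16. In IRS-1 #20, 6 were called lower (background 3.54%): MCM4, MCM5, RFC1, RPA1, RRM1 and TIMELESS. In #6, PRIM1 was called lower (background 1.58%), and #10 and #1 had 0 lower calls (backgrounds 1.47% and 0.794%). At an unadjusted p under 0.05 there were 13, 16, 6 and 12 members in #10, #20, #1 and #6. The share of all genes at that threshold is not given here, so nothing is read from these counts. The methods' t-test with Benjamini-Hochberg adjustment called 0 members in each clone. MCM4, not given by array here, differed by -0.17. TIMELESS, which protects stalled forks, read 11.59, 11.44 and 11.52 with IGF-I in IRS-1 #20, against 11.71, 11.69 and 11.72 in SFM (-0.19 ± 0.04, adjusted p = 0.00368). RFC1 read 10.03, 9.84 and 9.78 with IGF-I there, against 10.03, 10.16 and 10.15 in SFM (-0.23 ± 0.06, adjusted p = 0.0359). The groups did not overlap for either gene, although for RFC1 the nearest arrays of both groups read 10.03. RPA1, the large subunit that coats single strands, read 11.46, 11.40 and 11.29 with IGF-I, against 11.51, 11.53 and 11.71 in SFM (-0.20 ± 0.05, adjusted p = 0.0241). MCM5 read 10.75, 10.57 and 10.52 with IGF-I, against 10.72, 10.83 and 10.89 in SFM (-0.20 ± 0.06, adjusted p = 0.0433). RPA1 was separate and MCM5 overlapped by 1 array. RRM1 read 11.78, 11.60 and 11.57 with IGF-I, against 11.77, 11.80 and 11.88 in SFM (-0.16 ± 0.05, adjusted p = 0.0353), again overlapping by 1 array. PRIM1 read 11.80, 11.64 and 11.80 with IGF-I in IRS-2 #6, against 11.84, 11.89 and 11.96 in SFM (-0.15 ± 0.04, adjusted p = 0.0474), without overlap. The calls changed with 1 letter left out in all groups: without replicate A the counts were 16 in #20 and 5 in #6, and without replicate B or C they were 0 in both. After median centring they were 1 and 0, and quantile normalization gave 6 calls in #10 and 4 in #1. In IRS-1 #20 the differences without replicates B and C were -0.16 and -0.19 for TIMELESS, -0.18 and -0.16 for RFC1, -0.23 and -0.09 for RPA1, -0.17 and -0.11 for MCM5, and -0.15 and -0.09 for RRM1; for PRIM1 in IRS-2 #6 they were -0.10 and -0.15. When the probe sets of each gene were averaged, RPA1 (-0.08) and MCM5 (-0.18) were not called in IRS-1 #20, and after quantile normalization RRM1 (-0.10) was not.

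The response at 24 h minus that at 4 h, tested in 1 contrast per isoform, was larger for 42 members in the IRS-1 clones (background 6.32%, median 0.30) and for 24 in the IRS-2 clones (background 2.07%, median 0.18). It was smaller for none, against 2.24% of all genes in the IRS-1 clones and 2.19% in the IRS-2 clones. CDC45 led in the IRS-1 clones, at 0.59 ± 0.06 (adjusted p = 1.11e-10), and POLA2 had 0.32 ± 0.05 in the IRS-2 clones (adjusted p = 8.66e-06). The IRS-2 count was 3 without replicate B, 8 without replicate C and 14 after median centring.

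The SFM arrays were also compared between 24 h and 4 h. In IRS-1 #10, ORC4 was called higher at 24 h (0.20, background 2.21%) and none lower (background 0.374%). In IRS-1 #20, 8 were called lower (background 16.6%) and GINS2 and RRM2 higher (background 9.18%). In IRS-2 #1, DBF4, PRIM1 and RFC2 were called lower (background 4.74%) and none higher (background 2.9%). In IRS-2 #6, 8 were called higher (background 10.6%) and none lower (background 5.54%). These 8 were GINS2, POLE, RFC4, RNASEH2A, RRM2, TK1, TIMELESS and UHRF1. The 8 lower in IRS-1 #20 were MCM5, ORC2, ORC3, ORC4, ORC5, POLD2, RFC1 and RPA1, so 4 of them were core origin subunits. POLD2 (201115_at), an accessory subunit of polymerase delta, read 11.07, 11.05 and 11.29 at 24 h in IRS-1 #20, against 11.49, 11.54 and 11.52 at 4 h (-0.38 ± 0.06, adjusted p = 1.58e-06). ORC5 read 9.85, 9.87 and 10.04 at 24 h, against 10.13, 10.17 and 10.24 at 4 h (-0.26 ± 0.05, adjusted p = 4.34e-04). For both genes the 24 h arrays were all lower. ORC2 read 9.35, 9.30 and 9.54 at 24 h in the same clone, against 9.56, 9.52 and 9.70 at 4 h (-0.20 ± 0.06, adjusted p = 0.0167). ORC3 read 9.31, 9.38 and 9.33 at 24 h, against 9.43, 9.49 and 9.63 at 4 h (-0.18 ± 0.06, adjusted p = 0.045). ORC2 overlapped by 1 array and ORC3 did not. Both calls were lost without each letter (ORC2 at -0.19, -0.19 and -0.21, ORC3 at -0.21, -0.21 and -0.11) and after quantile normalization (-0.10 and -0.09), and that of ORC2 also with the mean of its probe sets (-0.09). DBF4 read 10.80, 10.73 and 10.63 at 24 h in IRS-2 #1, against 10.94, 11.02 and 11.05 at 4 h (-0.28 ± 0.07, adjusted p = 0.00405). RFC2, a small clamp loader subunit, read 10.87, 10.81 and 10.76 at 24 h there, against 10.99, 11.07 and 10.99 at 4 h (-0.20 ± 0.06, adjusted p = 0.0412). Neither overlapped, and both calls were lost without replicates B and C (DBF4 at -0.28 and -0.22, RFC2 at -0.17 and -0.19). With backgrounds of up to 16.6% of all genes, nothing is read from these counts about the members as a group. With 1 letter left out the counts in both directions were 3 to 4 in #20, 3 to 4 in #6, 0 to 3 in #10 and 0 to 4 in #1. Quantile normalization gave 5, 18 and 7 calls in #10, #20 and #1.

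With IGF-I present, by contrast, 47 members were called higher at 24 h than at 4 h in #10 (background 8.21%), 26 in #20 (background 8.61%), 21 in #1 (background 6.69%) and 33 in #6 (background 9.14%). POLD2 in IRS-1 #20 was the single lower call, against 2.9%, 7.91%, 5.68% and 4.46% of all genes in #10, #20, #1 and #6. These arrays are also part of the comparisons of IGF-I with SFM. The medians were 0.43, 0.16, 0.14 and 0.21. In all 4 clones 14 members were called higher: MCM2, MCM10, CDC6, CDC45, GINS2, POLA1, POLA2, RFC1, RRM1, RRM2, TYMS, TK1, RNASEH2A and TIMELESS. ORC2, ORC4, ORC5, GINS3 and RPA3 were called higher in none. The count in IRS-2 #1 was 12, 10 and 12 without replicates A, B and C and 13 after median centring, and that in IRS-2 #6 was 14 without replicate B.

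The study asked whether IRS-1 and IRS-2 pass on IGF-I signals differently. At 24 h the response was larger in the IRS-1 clones than in the IRS-2 clones for 6 members (background 0.703%) and smaller for none (background 0.0657%), with a median difference of 0.11 over the 54. They were CDC45 (0.24 ± 0.06, adjusted p = 0.0301), PRIM1 (0.21 ± 0.04, adjusted p = 0.00638), GINS2 (0.20 ± 0.04, adjusted p = 0.00356), RRM2 (0.19 ± 0.04, adjusted p = 0.00678), MCM2 (0.19 ± 0.04, adjusted p = 0.0253) and TK1 (0.18 ± 0.04, adjusted p = 0.0398). GINS2 (221521_s_at) read 12.24, 12.18 and 12.21 with IGF-I in IRS-1 #10, against 11.70, 11.76 and 11.78 in SFM. In IRS-2 #6 GINS2 read 12.68, 12.71 and 12.73 with IGF-I, against 12.73, 12.67 and 12.65 in SFM. The #10 arrays were separate and those of #6 overlapped, while the responses of #20 (0.13) and #1 (0.15) were close to each other. PRIM1 (205053_at) was the one of the 6 with both IRS-1 responses (0.43 in #10 and 0.28 in #20) above both IRS-2 responses (0.18 in #1 and 0.10 in #6). In IRS-1 #10 PRIM1 read 11.59, 11.62 and 11.60 with IGF-I, against 11.12, 11.21 and 11.20 in SFM. In IRS-2 #6 PRIM1 read 11.92, 11.96 and 11.98 with IGF-I, against 11.90, 11.88 and 11.78 in SFM. The isoform count changed with 1 letter left out in all groups and with scaling: it was 0 without replicate A or B and after median centring, 4 without replicate C, and 11 after quantile normalization. At 4 h limma called 0 members in either direction (backgrounds 0.0506% higher and 0.389% lower). At an unadjusted p under 0.05 there was 1, and the share of all genes at that threshold is not given here. The error of these contrasts comes from the arrays and holds no term for clones.

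The response was also compared between clones of 1 isoform. At 24 h it was smaller in IRS-1 #20 than in IRS-1 #10 for 23 members (background 0.394%) and larger for none (background 1.16%), with a median difference of -0.25. UHRF1 led (-0.72 ± 0.08, adjusted p = 6.13e-08), followed by MCM10 (-0.52 ± 0.07, adjusted p = 4.80e-06), CDC6 (-0.45), ORC6 (-0.44), MCM3 (-0.41) and MCM6 (-0.40). All 6 MCM2 to MCM7 genes were among the 23. RRM2 (-0.38), GINS1 (-0.34), POLA2 (-0.34), CDC45 (-0.34) and GMNN (-0.31) were among them too, and DBF4 was not (-0.04). With 1 letter left out the count was 8, 11 and 6 without replicates A, B and C, it was 9 after median centring, and it was 35 after quantile normalization. Between the IRS-2 clones limma called 0 members for #6 minus #1 (median -0.11, backgrounds 0% higher and 0.00506% lower), so a difference was not shown there. At an unadjusted p under 0.05 there were 11 members. The share of all genes at that threshold is not given here, so nothing is read from that count. The response of IRS-1 #10 was above those of the other 3 clones for 46 members, against 25.7% of all genes. Across the 54 members the 24 h responses, which share no arrays between clones, correlated at 0.82 between #1 and #10, 0.63 between #6 and #1, 0.59 between #6 and #10, 0.48 between #20 and #1, 0.35 between #20 and #6, and 0.29 between #20 and #10. Over all genes the values were 0.43 between #1 and #10, 0.38 between #6 and #1, 0.48 between #6 and #10, 0.48 between #20 and #1, 0.32 between #20 and #6, and 0.44 between #20 and #10. Genes are not independent replicates, and the correlations are descriptions.

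**Figure D4:**
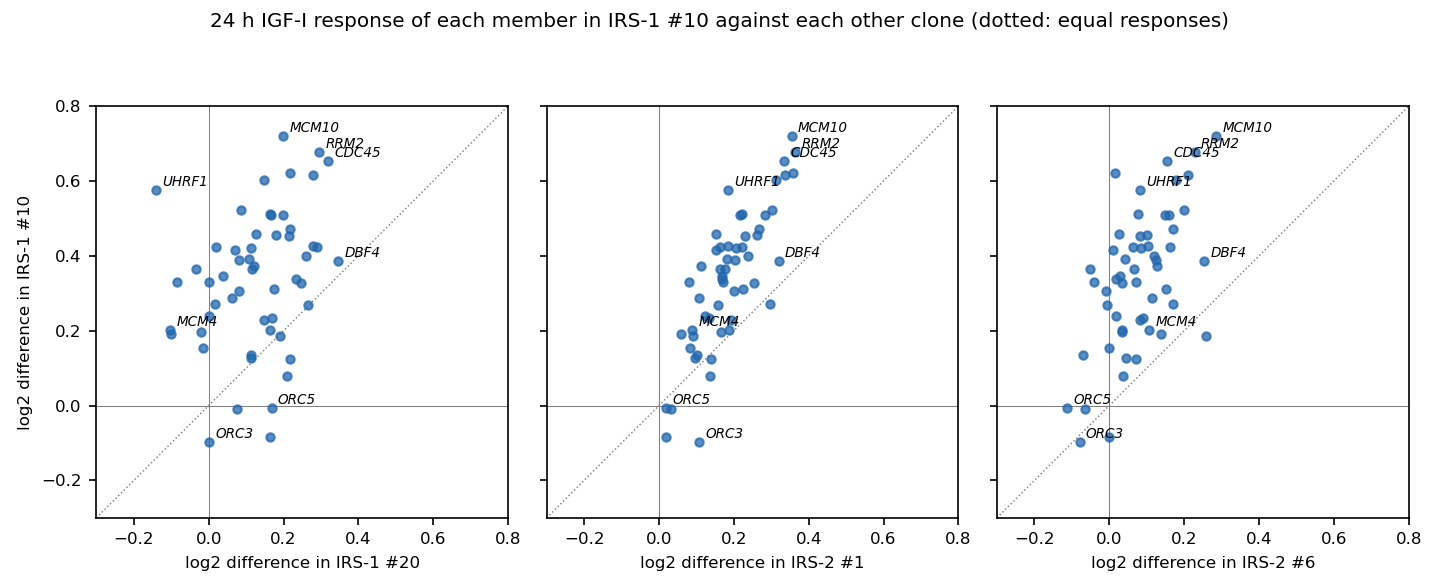
Log2 difference, IGF-I over SFM at 24 h, of each of the 54 members in #20, #1 and #6 (x axes, 1 panel each) and in #10 (y axis); the dotted line marks equal responses. Most points lie above the line, for 46 members in all 3 panels, and UHRF1 stands at 0.57 in IRS-1 #10 and -0.14 in IRS-1 #20.

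Other genes of the pathway that are not members were read the same way at 24 h of IGF-I. Of 30 further replication genes, 17 were called higher in #10 (background 4.39%), 9 in #20 (7.46%), 15 in #1 (2.93%) and 2 in #6 (1.42%). Lower calls were POLD4, a small polymerase delta subunit, in #1 (-0.23, background 1.62%) and #6 (-0.33, background 4.34%), and CHTF8 in #6 (-0.13). ASF1B, a histone chaperone, rose by 0.51 in #10, 0.21 in #1 and 0.19 in #6, and DONSON, a replication fork protein, was called in all 4 clones (0.46 in #10, 0.21 in #20, 0.29 in #1 and 0.23 in #6). Against the same backgrounds, of 29 further genes of nucleotide supply 9 were called higher in #10, 15 in #20, 5 in #1 and 1 in #6. CTPS1, which makes CTP, was called in all 4 clones (0.41 in #10, 0.32 in #20, 0.34 in #1 and 0.24 in #6). RRM2B, the p53-induced small subunit of ribonucleotide reductase, was the one lower call of this list, in IRS-1 #10 (-0.20, adjusted p = 0.0219, background 6.65%).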

How the data were processed

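The 48 samples were measured on Affymetrix HG-U133 Plus 2.0 arrays, 1 array each. The authors ran GC-RMA within GeneData Refiner, by their methods, and GCRMA is also the tool in the submitters' processing notes, which give it no version. The deposited values are on a log2 scale, 1 per probe set and array, for 54675 probe sets, from 3.13 to 15.35. A later scaling to untreated cells, named in the methods, is not in these values, since SFM arrays carry full levels. Only processed values were used, so signal over background is unknown and the number of arrays limits the precision.

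The 54 members, their roles and the further gene lists were chosen with earlier results of these data known. Symbols came from the platform annotation (41091 probe sets tested had 1 symbol, 1801 several and 11721 none), and the brightest probe set by mean over all arrays stood for a gene. The 62 Affymetrix controls were left out, and 54613 probe sets entered limma 3.58.1 under R 4.3.3 with 16 group means, empirical Bayes with a variance trend and 32 residual degrees of freedom. A call is an adjusted p under 0.05 (Benjamini-Hochberg over all probe sets, per comparison) with no fold threshold. That rule, too, was chosen with earlier results known, in which cell cycle genes lay mostly under the 1.5-fold of the methods. The script was tested on simulated data. Genes given with every array were the 12, 6 and 6 with the largest mean absolute difference over the clones among those called (24 h, SFM over time, and 4 h) and the 4 leading isoform differences, with values cut to the clones of largest and smallest difference. Alternatives were a 1.5-fold threshold, the methods' t-test, quantile normalization, median centring, testing only probe sets that reached log2 5 on 3 arrays, no variance trend, averaging each gene's probe sets, a block for the replicate letter, and each letter left out in all groups. Promoter windows are those of RefSeq on GRCh38.p14.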

Additional observations from a re-analysis of the deposited data

Results flagged for a closer look

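Several differences of response between groups passed limma's test of the difference itself, and they are listed here for that reason alone. For the isoforms at 24 h, 6 members had a larger response in the IRS-1 clones than in the IRS-2 clones (0.703% of all genes). They were CDC45 by 0.24, PRIM1 by 0.21, GINS2 by 0.20, RRM2 by 0.19, MCM2 by 0.19 and TK1 by 0.18. The count was 0 without replicate A or B and after median centring. PRIM1 alone among them had both IRS-1 responses above both IRS-2 responses. For the IRS-1 clones at 24 h, 23 members had a smaller response in #20 than in #10 (0.394% of all genes). Among the genes given with every array these were MCM10 (-0.52), CDC6 (-0.45), ORC6 (-0.44), RRM2 (-0.38), GINS1 (-0.34), POLA2 (-0.34), CDC45 (-0.34) and GMNN (-0.31). For the times, 42 members had a larger response at 24 h than at 4 h in the IRS-1 clones (6.32% of all genes). In the IRS-2 clones it was 24 (2.07% of all genes), and 3 without replicate B. Groups of 3 arrays are too small for a test of single outlying arrays, and none was run.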

How the results depend on the processing

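Every member median kept its direction under each alternative that gave a value for the 24 h response, and no called value reversed. The 24 h counts in #20, #1 and #6 fell to 0 with at least 1.5-fold and with the methods' t-test. The count for the isoform difference at 24 h fell to 0 without replicate A or B and after median centring. The 24 h count in IRS-1 #10 (42) stayed within 37 to 40 without 1 letter. Counts in the other comparisons were less stable, and the cause was not tested. Shares of all genes under the alternatives are not given here, apart from 1.5-fold at 24 h in #10. The counts therefore show only how the members' own calls moved. The counts without replicates A, B and C ranged as follows. For IGF-I over SFM at 24 h they were 6 to 20 in #20, 8 to 23 in #1 and 2 to 4 in #6. At 4 h they were 0 to 1 in #10, 0 to 16 in #20 and 0 to 5 in #6, and the medians were -0.146 to -0.0396 in #20 and -0.111 to 0.00232 in #6. For SFM at 24 h over 4 h they were 0 to 3 in #10, 3 to 4 in #20, 0 to 4 in #1 and 3 to 4 in #6. For IGF-I at 24 h over 4 h they were 10 to 12 in #1 and 14 to 35 in #6, with medians of 0.14 to 0.21 in #20 and 0.15 to 0.25 in #6. They were 0 to 4 for the isoform difference at 24 h, 6 to 11 for IRS-1 #20 minus #10 and 3 to 24 for the time difference of the IRS-2 clones, and the isoform median at 4 h was -0.0661 to 0.0466.

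With at least 1.5-fold, 6 members stayed called at 24 h in #10, 7 for IGF-I at 24 h over 4 h in #10, 1 for #20 minus #10, 1 for the time difference of the IRS-1 clones and 0 elsewhere. The methods' t-test at its thresholds gave 6 and 7 in the same IRS-1 #10 comparisons and 0 elsewhere. With Benjamini-Hochberg it gave 16 and 19 there, 6 for IGF-I at 24 h over 4 h in #20, 1 in that comparison in #1, 1 each in SFM over time in #1 and #6, and 0 elsewhere; it was not run for differences of responses. Quantile normalization gave 18 calls at 24 h in #6, 6 and 4 at 4 h in #10 and #1, 5, 18 and 7 for SFM over time in #10, #20 and #1, 11 for the isoform difference and 35 for #20 minus #10. Its medians were -0.0328 at 4 h in #20, -0.0131, 0.0592 and -0.0258 for SFM over time in #10, #20 and #6, 0.15 for IGF-I over time in #6, -0.32 for #20 minus #10 and -0.0586 for #6 minus #1. The SFM medians, which were not tested, thus changed sign in #10, #20 and #6. Median centring gave 2 calls at 24 h in #6, 1 and 0 at 4 h in #20 and #6, 0 for SFM over time in #10, 13 for IGF-I over time in #1, 0 for the isoform difference, 9 for #20 minus #10 and 14 for the time difference of the IRS-2 clones. Without a variance trend there were 4 calls at 24 h in #6, 1 and 0 at 4 h in #20 and #6, 0 and 5 for SFM over time in #10 and #6, and 2 for the isoform difference. The mean of probe sets gave 2 calls at 4 h in #10, 0, 5 and 6 for SFM over time in #10, #20 and #1, and a median of 0.25 for the time difference of the IRS-1 clones. The dim filter moved no count past 1.5 times.

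The replicate letters did not pair the arrays: deviations of arrays with the same letter correlated at -0.47 to 0.31. With the replicate block the counts were 0 at 4 h in #6 and 0 for SFM over time in #10, ORC3 lost its call for SFM over time in #20 (-0.18), and PRIM1 lost its call at 4 h in #6 (-0.15). For the genes given with every array, 491 values kept their side of the threshold under an alternative, 72 lost a call and 13 gained one. With 3 arrays a group and values already normalized, signal over background could not be judged.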

Other observations

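Enzymes of purine and pyrimidine synthesis and salvage, outside the 54 members, moved in the unstimulated arrays of IRS-1 #20. Of the 29 further genes of nucleotide supply measured, 18 were called lower at 24 h than at 4 h in SFM in that clone. There 16.6% of all genes were called lower. None of the 29 was called higher, against 9.18% of all genes. No alternative processing is given here for these 18 calls. For the 54 members, the median of the same comparison changed sign to 0.0592 after quantile normalization. ADSL, a purine synthesis enzyme, fell by 0.42 on the log2 scale (adjusted p = 5.12e-08 in limma). APRT, which salvages adenine, fell by 0.33, and NME1, a nucleoside diphosphate kinase, fell by 0.32. In the same clone 15 of the 29 were called higher with IGF-I at 24 h than in SFM (7.46% of all genes), among them ADSL (0.23) and NME1 (0.27). Both comparisons use the same SFM arrays at 24 h, so they are not independent. In SFM at 24 h against 4 h, 0 of the 29 were called lower in #10 (0.374% of all genes), 7 in #1 (4.74%) and 7 in #6 (5.54%).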
